A study of Mus musculus with 14 samples.

Results

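The genes described here are 10 genes of the epithelial to mesenchymal transition (EMT), taken as a named list, with no measured value in the rule: the cadherins Cdh1 and Cdh2, the transcription factors Snai1, Snai2, Zeb1, Zeb2 and Twist1, the epithelial adhesion molecule Epcam, and the mesenchymal genes Vim and Fn1. All 10 had a row in every one of the 14 libraries, among 24054 genes per table. RNA was measured by low-input sequencing of sorted mouse cells in 6 groups. In the con groups 1 allele of the transcription factor gene Foxa2 had its coding region replaced by the nuclear reporter H2B-Venus, and in the ko groups both alleles had. The groups d0con and d0ko (n = 2 each) are undifferentiated embryonic stem cells, cultured on feeder fibroblasts that carry a red fluorescent protein and sorted as negative for that protein. The groups d3con and d3ko (n = 3 each) are cells sorted as Venus-positive once 3 days had passed on a Wnt3a-secreting feeder layer with Activin A at 12 ng/ml. The groups d2-FVFn and d2-FVFp (n = 2 each) come from a separate stem cell line without feeders, in which doxycycline (40 ng/ml for 48 hours) turns on a fusion of Foxa2 and Venus. They are the Venus-negative and Venus-positive cells of the same treatment, so both groups had the drug and both were cultured in serum and LIF, a cytokine that maintains stem cells. All 4 libraries come from 1 such line, which carries a fusion of Sox17 and Cherry at both Sox17 alleles. Each genotype of the Foxa2 knockout series has 2 clones, and replicates 1 and 3 at day 3 are the same clone, so p-values measure the spread between these libraries more than between independent clones.

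An EMT is the change in which cells of an epithelial sheet lose their junctions and become motile. E-cadherin, the product of Cdh1, holds epithelial cells together, and during gastrulation cells that leave the epiblast through the primitive streak typically lower Cdh1 and raise N-cadherin, the product of Cdh2, an exchange called the cadherin switch. Transcription factors of the Snail, Zeb and Twist families repress Cdh1, those of the Snail and Zeb families by binding E-box sequences in its promoter. Definitive endoderm, the germ layer of gut, liver and pancreas, ends as an epithelium again.

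Library totals ranged from 14142788 to 27278237 expected counts, which are the read counts per gene that RSEM estimates. Levels are given as TPM (a gene's share of all transcripts, scaled for gene length), and differences as log2 fold changes of scaled counts from edgeR's quasi-likelihood test with Benjamini-Hochberg adjustment. A gene was called higher or lower at an adjusted p under 0.05 with a log2 fold change over 1 in size. Foxa2 itself, which checks the labels, stood at 58.6, 34.8 and 54.5 TPM in d3con and at 0.11, 0.15 and 0.19 TPM in d3ko, and at 2.99 and 2.01 TPM in d2-FVFn against 169 and 160 TPM in d2-FVFp. Some libraries stood apart. The summed level of 6 pluripotency markers lay between 562 and 985 TPM in d3con, but at 15431 and 17364 TPM in d3ko replicates 1 and 3, which are 1 clone, and at 2668 TPM in d3ko replicate 2, against 13787 to 15663 TPM at day 0. Most of this sum is Dppa5a, at 14200, 1866 and 15543 TPM in d3ko, and the other 5 markers summed to 1230, 802 and 1821 TPM in d3ko, against 117 to 585 TPM in d3con and 2262 to 2467 TPM at day 0. The summed level of 6 endoderm markers was 869 to 1107 TPM in d3con and 34.9 to 185 TPM in d3ko. The summed level of 12 fibroblast markers, which the feeder cells would carry, was 20.2 and 25.4 TPM in d0con, 53.3 and 170 in d0ko, 346, 71.4 and 233 in d3con and 349, 151 and 367 in d3ko. Of these 12 markers, Fap was at 0 in 10 of the 14 libraries and Col1a1 in none, reaching 260 TPM in d3ko replicate 3. Col1a1 was the largest part of every day 3 sum. In d3ko replicate 2 was lowest in Col1a1, Col1a2, Col3a1, Loxl1 and Fap. Replicate 3 of d3ko was lowest in Col6a3, Postn, Lum, Dcn, Pdgfrb, Acta2 and Tagln. Libraries called lowest in fibroblast markers below are those with the lowest sum. The doxycycline libraries, grown without feeders, had sums of 26.4 to 189 TPM with Col1a1 at 1.05 to 1.58 TPM. Reads of 75 bases were counted for the first replicate of d3con and of d3ko, and reads of 50 bases elsewhere.

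**Figure D1:**
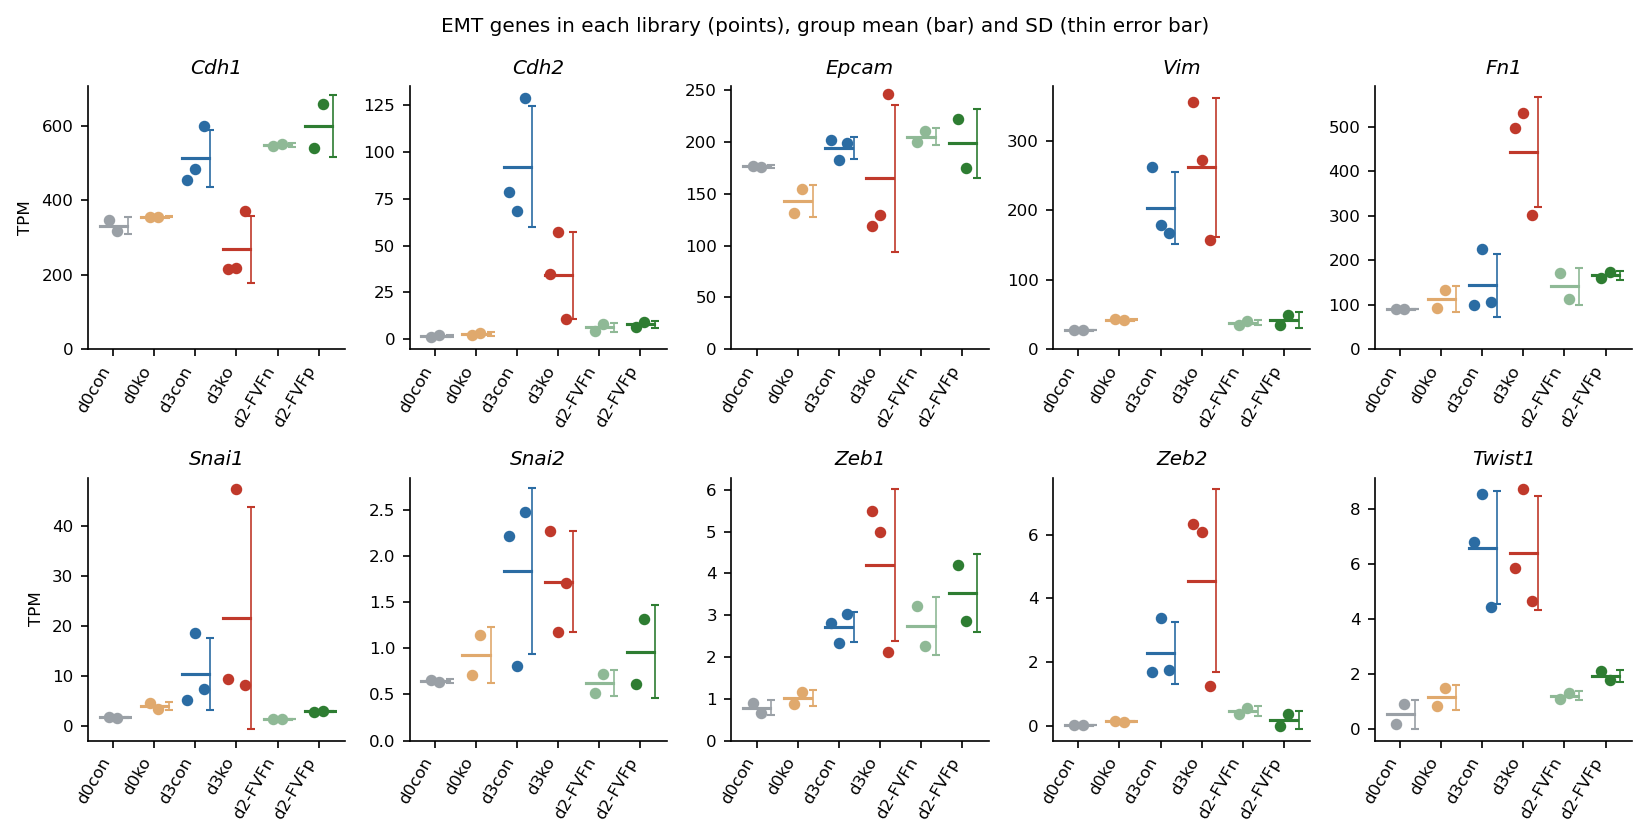
TPM of each of the 10 genes (vertical axes, 1 panel per gene) in every library of the 6 groups (horizontal axis), with points for libraries, a bar for the group mean and a thin error bar for the SD. Cdh2, Vim, Zeb2 and Twist1 lie above day 0 in every day 3 library of their genotype, while Cdh1 and Epcam stay above 100 TPM in all 14 libraries.

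The first comparison is the differentiation of control cells, d3con against d0con. Cdh2 was called higher and Cdh1 was not called. Cdh2 (chromosome 18, 16588877 to 16809246, GRCm38) stood at 1.16 and 1.99 TPM in d0con and at 78.8, 68.3 and 129 TPM in d3con, a change of 5.66 in log2 units (SE 0.76, adjusted p = 0.000572). The 3 day 3 libraries lay far above both day 0 libraries. Cdh1 (chromosome 8, 106603350 to 106670247) had 347 and 316 TPM in d0con and 455, 483 and 598 TPM in d3con. These groups did not overlap, with day 3 the higher, but the log2 fold change of 0.42 (SE 0.23) did not pass the test (adjusted p = 0.153). Epcam (chromosome 17, 87635979 to 87651127), a surface adhesion molecule of epithelia and of stem cells, had 177 and 176 TPM in d0con and 202, 182 and 199 TPM in d3con. Its log2 fold change was -0.06 (SE 0.28, adjusted p = 0.86), although the day 3 TPM values all lay just above those of day 0. TPM and scaled counts are referred to different totals.

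On the per-length TPM scale Cdh1 remained the more abundant cadherin in every library. Cdh1 exceeded Cdh2 by 299 and 159 times in the d0con libraries and by 5.77, 7.07 and 4.64 times in the d3con libraries. The log2 ratio of Cdh2 to Cdh1, with 1 TPM added to each, was -7.03 ± 0.43 in d0con (SD, n = 2) and -2.51 ± 0.30 in d3con (SD, n = 3). It did not reach 0, where both would be equal, in any of the 14 libraries. The libraries average many cells, so cells that had exchanged one cadherin for the other and cells that held both cannot be told apart, nor can fewer expressing cells and less RNA per cell.

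**Figure D2:**
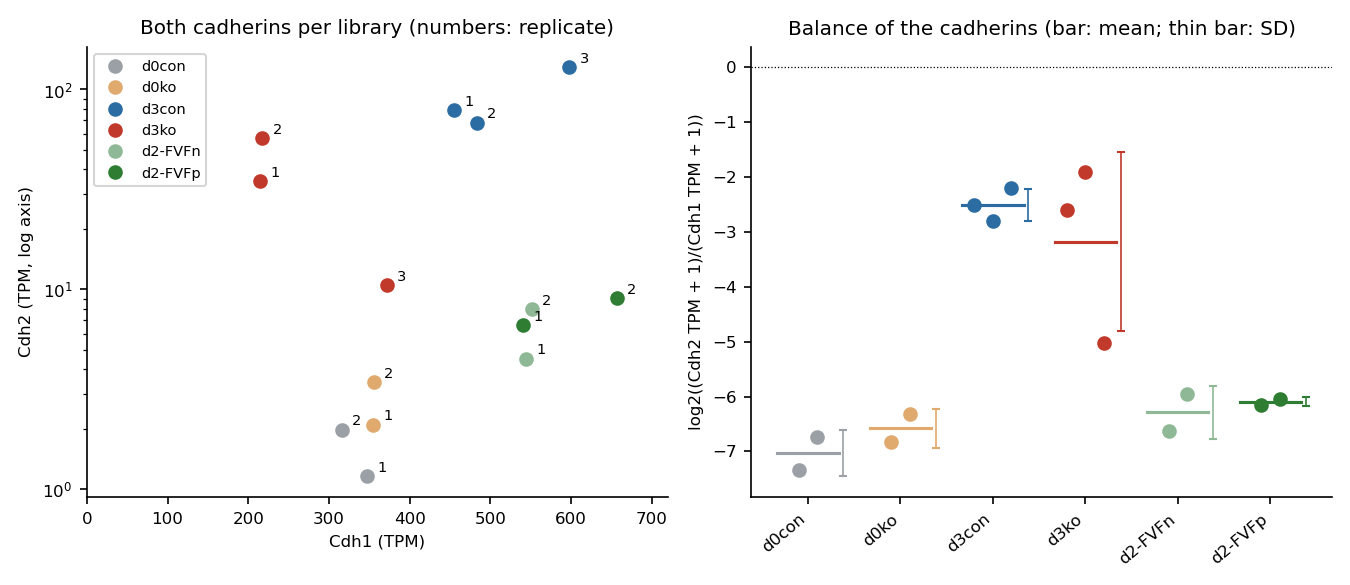
Left, Cdh2 (TPM, log axis) against Cdh1 (TPM) in each library, numbered by replicate. Right, the log2 ratio of Cdh2 to Cdh1 by group (points for libraries, bar for the mean, thin bar for the SD), in which the d3con libraries lie between -2.80 and -2.20, all 4 day 0 libraries lie below -6, and d3ko replicate 3 lies apart from its group at -5.01.

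Vim (chromosome 2, 13574311 to 13582826), the intermediate filament protein used as a mesenchymal marker, had 28.0 and 28.1 TPM in d0con and 263, 179 and 167 TPM in d3con. All day 3 libraries were higher, by a change of 2.67 in log2 units (SE 0.37, adjusted p = 0.000665). Fn1 (chromosome 1, 71585473 to 71653280), which encodes the matrix protein fibronectin, had 90.1 and 89.7 TPM in d0con and 98.2, 226 and 107 TPM in d3con. Only replicate 2 stood clearly above day 0, and the log2 fold change of 0.48 (SE 0.37) did not pass the test (adjusted p = 0.297).

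Among the transcription factors, Zeb2, Twist1, Zeb1 and Snai1 were called higher and Snai2 was not. Zeb2 (chromosome 2, 44983512 to 45117442), a zinc finger repressor, went from 0.03 and 0.04 TPM to 1.69, 3.40 and 1.75 TPM, a change of 5.75 in log2 units (SE 0.88, adjusted p = 0.000994) that starts from 3 and 4 counts. Twist1 (chromosome 12, 33957671 to 33959831), a basic helix-loop-helix factor of mesoderm, went from 0.16 and 0.91 TPM to 6.79, 8.54 and 4.43 TPM, by a change of 3.42 in log2 units (SE 0.71, adjusted p = 0.00395). In both genes the lowest day 3 library was above the highest day 0 library. Zeb1 (chromosome 18, 5591327 to 5775468), the relative of Zeb2, went from 0.91 and 0.66 TPM to 2.81, 2.33 and 3.03 TPM, by a change of 1.59 in log2 units (SE 0.43, adjusted p = 0.0138). Snai1 (chromosome 2, 167538195 to 167542814), the Snail repressor, went from 1.84 and 1.74 TPM to 5.19, 18.6 and 7.52 TPM, with replicate 2 far above the others. Its log2 fold change of 2.31 (SE 0.86) was just past the threshold (adjusted p = 0.0467), and adjusted p ranged from 0.000211 to 0.176 over 21 alternatives, of which 15 called it. It was not called without either d0con library, either d0ko library or replicate 2 or 3 of d3con. Snai2 (chromosome 16, 14705852 to 14709395), the Slug repressor, had 0.66 and 0.63 TPM in d0con and 2.22, 0.81 and 2.48 TPM in d3con, a change of 1.31 in log2 units (SE 0.60, adjusted p = 0.0957). All of these factors lay below 20 TPM in d3con, against more than 400 TPM for Cdh1. Zeb1 and Zeb2 overlap the noncoding genes Gm10125 and Zeb2os, and counting by strand is not stated, so reads of those partners could be included.

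In all, 6 of the 10 genes were called higher in d3con and none lower, beside 20.6% of 13899 genes tested that were called higher. The median log2 fold change of the 10 was 1.95, against 0.07 over all genes tested. All 10 passed the filter on low counts, but Zeb2 reached 1 CPM (counts scaled to a common library total) in no day 0 library, and Twist1 and Snai2 in 1 of 4, so these passed through day 3. The fibroblast markers moved with these changes, since 5 of 11 tested were also called higher in d3con. When day 3 was represented by replicate 2 alone, the library of each genotype with the lowest fibroblast sum, an alternative chosen after seeing the data in which the lone library is assumed to vary like the others, Cdh2 (log2 fold change 5.20), Vim (2.43), Zeb2 (6.29), Twist1 (3.77), Zeb1 (1.32) and Snai1 (3.12) were called again. In that fit Fn1 was called as well, at 1.10 (adjusted p = 0.00264, with a range of 0.00264 to 0.967 over its 21 alternatives), while Snai2 was at 0.08. Zeb1 was not called without d0con replicate 1 or without d0con replicate 2, and without d3con replicate 2 Snai2 was called at 1.67.

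Sequences upstream of the start were available for 5 of the 10 genes, Vim, Zeb2, Snai1, Twist1 and Epcam, as 300-base windows from 250 bases before to 50 after the start (RefSeq, GRCm38.p6). They are shown for Snai1 and Epcam because these 2 hold the E-box CAGGTG, which reads CACCTG on the opposite strand. These are letters that Snail and Zeb factors bind, and they are printed in capitals. Snai1 was called higher at day 3 and Epcam was not called in any comparison. The windows are chr2:167537945-167538244 and chr17:87635729-87636028, both on the plus strand.
Snai1: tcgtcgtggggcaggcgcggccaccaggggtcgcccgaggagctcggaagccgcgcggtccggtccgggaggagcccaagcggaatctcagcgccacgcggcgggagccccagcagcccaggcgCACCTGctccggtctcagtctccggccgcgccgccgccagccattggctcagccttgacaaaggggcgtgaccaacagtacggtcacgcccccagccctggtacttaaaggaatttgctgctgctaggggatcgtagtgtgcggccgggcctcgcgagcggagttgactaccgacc
Epcam: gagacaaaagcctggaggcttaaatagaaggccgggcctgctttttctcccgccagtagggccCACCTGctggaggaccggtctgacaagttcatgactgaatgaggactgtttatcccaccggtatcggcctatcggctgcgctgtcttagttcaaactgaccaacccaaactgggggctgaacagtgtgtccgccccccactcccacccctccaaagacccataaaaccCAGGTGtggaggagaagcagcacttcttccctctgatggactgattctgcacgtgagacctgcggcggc
Snai1 has 1 E-box, 126 bases before its start, and Epcam has 2, 187 and 19 bases before its start. The E-box was found in 20.2% of 32851 promoter windows, so a match of this kind is common. The forkhead sequence TGTTTAC, searched on both strands, was in none of the 5 windows and in 3.65% of all windows.

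The same change without Foxa2, d3ko against d0ko, asks whether the EMT genes move when Foxa2 cannot be made. Here Cdh2, Vim, Zeb1, Zeb2, Twist1 and Fn1 were called higher and none lower, that is 6 of 10 genes beside 11.6% of all genes tested called higher and 5.72% called lower. The median log2 fold change of the 10 was 2.05, against 0.07 over all genes tested. This comparison shares no library with d3con against d0con, but both come from the same fit of 10 libraries and share its estimate of spread.

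Cdh2 had 2.11 and 3.45 TPM in d0ko and 34.7, 57.0 and 10.5 TPM in d3ko, a change of 3.45 in log2 units (SE 0.67, adjusted p = 0.00681). All day 3 libraries were above day 0, with replicate 3 the lowest by far. Cdh1 had 354 and 356 TPM in d0ko and 214, 217 and 371 TPM in d3ko, so that 2 libraries were below day 0 and replicate 3 was slightly above it. Its log2 fold change of -0.57 (SE 0.23) did not pass the test (adjusted p = 0.0822). Cdh1 exceeded Cdh2 by 168 and 103 times in d0ko and by 6.18, 3.82 and 35.3 times in d3ko. The log2 ratio of Cdh2 to Cdh1 was -6.58 ± 0.36 in d0ko (SD, n = 2) and -3.17 ± 1.63 in d3ko (SD, n = 3), a much wider spread than in d3con, and it was -2.25 without replicate 3. That library also had the highest Cdh1, Epcam and pluripotency sum of its group and the lowest Vim, Zeb1, Zeb2, Twist1 and Fn1.

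Epcam had 132 and 154 TPM in d0ko and 119, 130 and 246 TPM in d3ko, with a change of 0.04 in log2 units (SE 0.28, adjusted p = 0.929). Vim had 43.0 and 41.6 TPM in d0ko and 357, 273 and 157 TPM in d3ko, all above day 0, by a change of 2.47 in log2 units (SE 0.37, adjusted p = 0.00242). Fn1 had 91.5 and 133 TPM in d0ko and 497, 531 and 301 TPM in d3ko. Fibronectin was therefore higher in every d3ko library than in either d0ko library, with a change of 1.83 in log2 units (SE 0.39, adjusted p = 0.00934).

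Zeb2 had 0.16 and 0.13 TPM in d0ko and 6.34, 6.07 and 1.25 TPM in d3ko, by a change of 4.79 in log2 units (SE 0.77, adjusted p = 0.0032). Zeb1 had 0.88 and 1.16 TPM against 5.49, 5.0 and 2.12 TPM, by 1.88 (SE 0.44, adjusted p = 0.0129). Both Zeb genes were thus higher in all 3 libraries, with replicates 1 and 2 close together and replicate 3 nearer to day 0. Twist1 had 0.83 and 1.47 TPM against 5.85, 8.70 and 4.65 TPM, by a change of 2.30 in log2 units (SE 0.65, adjusted p = 0.0269). Snai1 had 4.69 and 3.48 TPM in d0ko and 9.49, 47.4 and 8.37 TPM in d3ko, and Snai2 had 0.71 and 1.14 TPM against 2.27, 1.18 and 1.71 TPM. Replicate 2 held by far the most Snai1 of all 14 libraries, and it was also replicate 2 of d3con that led its group. Neither Snai1 (log2 fold change 2.22, SE 0.83, adjusted p = 0.0703) nor Snai2 (0.73, SE 0.58, adjusted p = 0.36) was called by edgeR. DESeq2 did call Snai1 higher, at a log2 fold change of 2.22 (adjusted p = 0.0123).

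In d3ko against d0ko 1 of 11 fibroblast markers tested was called higher and 1 lower, beside 11.6% and 5.72% of all genes tested. Their median log2 fold change was 0.93, and their sum already stood at 53.3 and 170 TPM in d0ko. With replicate 2 alone at day 3, Cdh2 (log2 fold change 4.21), Vim (2.53), Zeb2 (5.19), Zeb1 (2.14), Twist1 (2.76) and Fn1 (2.11) were called again, and Snai1 was called too at 3.37. Without d0ko replicate 1 the genes called fell from 6 to 2 of the 10, Vim and Zeb2, and all genes called fell from 2408 to 667. Without d0ko replicate 2, 4 were called, with Twist1 and Zeb1 lost. Twist1 was also lost without the 75-base libraries, and without d3ko replicate 3 Snai1 was called at 2.61.

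**Figure D3:**
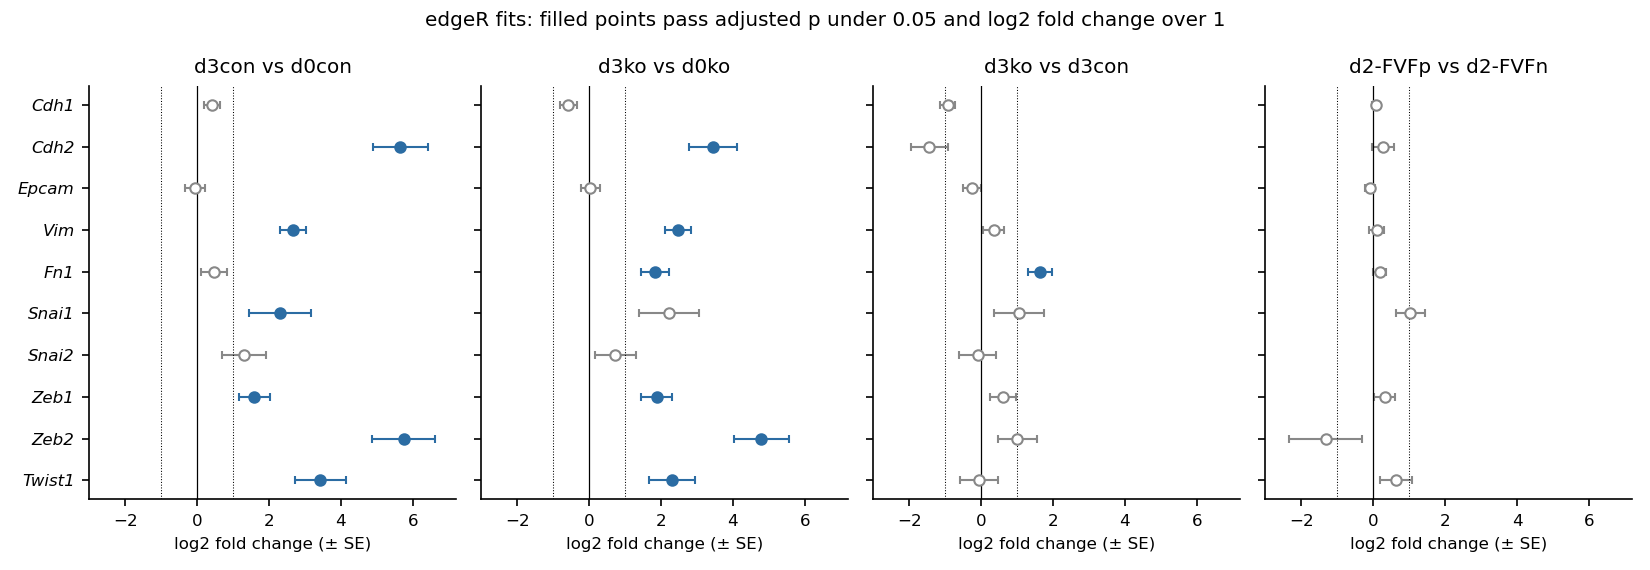
Log2 fold change with its SE (horizontal axes) of the 10 genes (vertical axis) in 4 comparisons, filled where the gene was called and with dotted lines at -1 and 1. Cdh2 rises by 5.66 in control and 3.45 in knockout differentiation, Fn1 is the only gene called between genotypes at day 3, at 1.63, and no gene is called in the doxycycline series.

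The comparison of d3ko with d3con asks how Venus-positive cells at day 3 differ when they lack Foxa2. Only Fn1 was called, with 301 to 531 TPM in d3ko against 98.2 to 226 TPM in d3con and no overlap. The log2 fold change was 1.63 (SE 0.33, adjusted p = 0.0202). That is 1 of 10 genes higher and none lower, beside 4.75% of all genes tested called higher and 3.51% called lower. The call on Fn1 depended on the libraries: its adjusted p ranged from 4.03e-05 to 0.188 over 20 alternatives and 13 called it. It was not called without d3con replicate 1, d3con replicate 3 or d3ko replicate 1, nor when libraries of the same clone were summed (log2 fold change 1.45, adjusted p = 0.129), and its log2 fold change stayed between 1.27 and 2.09. In d0ko Fn1 was higher in the library with the higher fibroblast marker sum, at 133 against 91.5 TPM. At day 3 the highest Fn1 value of d3con came from replicate 2, which had the lowest sum of its group. The highest among the d3ko libraries was also in replicate 2, again the lowest in that sum, though replicate 3 was lowest in several of its markers. These 2 libraries are also the other clone of each genotype. The parts of feeder RNA and of the clone in Fn1 were not tested. With those 2 libraries alone at day 3 the log2 fold change was 1.27 (adjusted p = 0.0589).

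Both cadherins were lower in TPM in every d3ko library than in any d3con library, without being called. How many of all genes separate in this way was determined only for d0ko against d0con. Cdh1 had 214, 217 and 371 TPM against 455, 483 and 598 TPM, a log2 fold change of -0.93 (SE 0.21). Its adjusted p of 0.0242 was under 0.05, but the size was under the required 1. Over 20 alternatives the log2 fold change lay between -1.24 and -0.80, and 2 alternatives called it lower, the fit without d3ko replicate 3 (-1.24) and that with replicate 2 alone at day 3 (-1.12). Cdh1 lies on chromosome 8, and in d3ko replicate 2 the median of 512 genes of chromosome 8 was 0.42 lower (log2) than in the other d3ko replicates, while the medians of the other autosomes lay between -0.0003 and 0.08. In d3ko replicates 1 and 3 this chromosome 8 median was 0.23 and 0.19, each taken against a mean that includes replicate 2. These values are relative within d3ko, so lower levels in replicate 2 and higher levels in replicates 1 and 3 cannot be told apart. No such median was taken against d3con. Between the d0ko libraries it was 0.07 in replicate 1 and -0.07 in replicate 2, with the other autosomes between -0.04 and 0.04. Without d3ko replicate 2 the log2 fold change of Cdh1 was -0.80 (adjusted p = 0.0219). Cdh1 was lowest in replicate 1, at 214 TPM, and the part of chromosome 8 in these values was not tested.

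Cdh2 had 34.7, 57.0 and 10.5 TPM in d3ko against 78.8, 68.3 and 129 TPM in d3con. The log2 fold change was -1.44 (SE 0.52, adjusted p = 0.109). DESeq2 called it lower, as did the fit without d3ko replicate 2 (log2 fold change -2.00), and over 20 alternatives adjusted p ranged from 0.0221 to 0.812. With replicate 2 alone at day 3 the log2 fold change was -0.23. Since both cadherins were lower in d3ko, the ratio of Cdh2 to Cdh1 overlapped between the genotypes, and d3ko replicate 2 had the highest ratio of all libraries, at -1.91.

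The remaining genes overlapped between d3ko and d3con in TPM. Snai1 differed by a change of 1.05 in log2 units (SE 0.68, adjusted p = 0.355), which became -0.20 without d3ko replicate 2. Zeb2 differed by 1.01 (SE 0.54, adjusted p = 0.258) and Zeb1 by 0.62 (SE 0.36, adjusted p = 0.302). Without d3ko replicate 3 Zeb2 was called higher at 1.46 (adjusted p = 0.047). For Vim the log2 fold change was 0.35 (SE 0.30, adjusted p = 0.477), for Epcam -0.24 (SE 0.25, adjusted p = 0.564), for Snai2 -0.10 (SE 0.50) and for Twist1 -0.05 (SE 0.52). The sums of pluripotency and endoderm markers differed between the genotypes in the opposite senses given above, and their part in these differences was not tested.

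**Figure D4:**
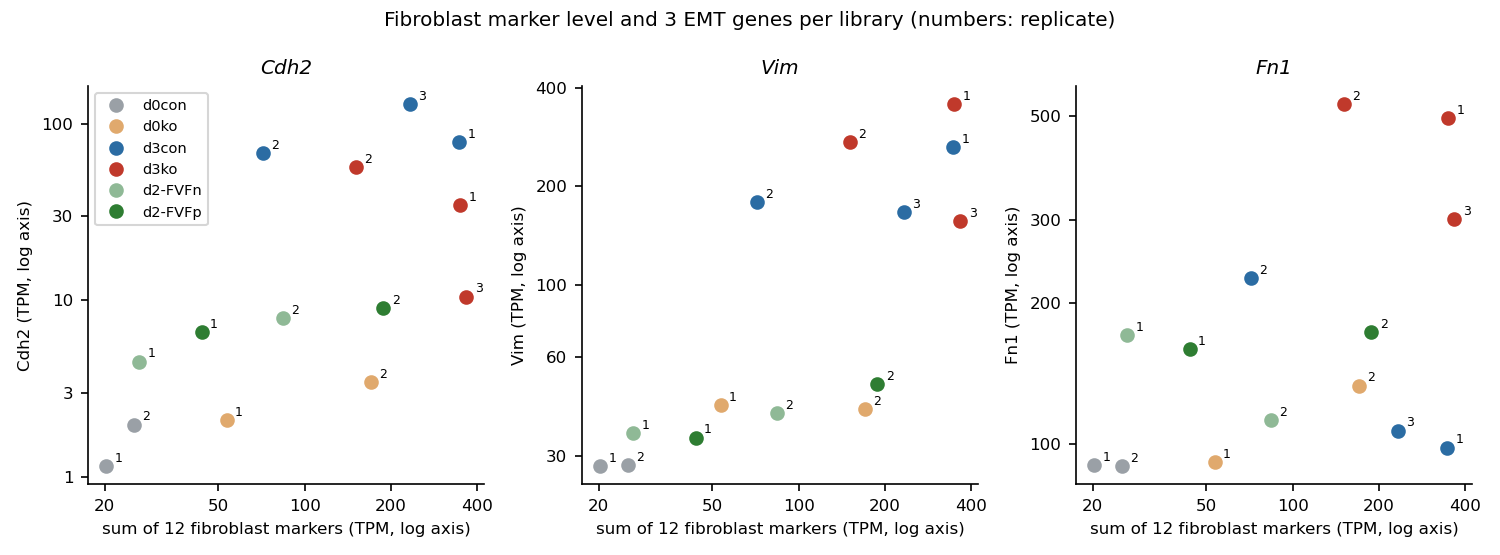
Cdh2, Vim and Fn1 (TPM, log axes) against the summed TPM of 12 fibroblast markers (log axis) in each library, numbered by replicate and coloured by group. At day 3 replicate 2 of each genotype has the lowest marker sum, 71.4 and 151 TPM, and the highest Fn1 of its genotype, 226 and 531 TPM. In d0ko replicate 2 has the higher sum, 170 TPM, and the higher Fn1, 133 TPM.

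Whether the change with the day differs between genotypes was tested with the interaction. None of the 10 genes was called, nor was any of the 13899 genes tested by edgeR, although 1840 genes had an unadjusted p under 0.05 and DESeq2 called 565 genes, none of them among the 10. Unadjusted p was under 0.05 for 3 of the 10 by edgeR. For Cdh2 the change in the knockout minus that in the control was -2.21 on the log2 scale (SE 0.86, adjusted p = 0.311). Fn1 was at 1.36 (SE 0.52, adjusted p = 0.304) and Cdh1 at -0.99 (SE 0.32, adjusted p = 0.247). The other 7 lay between -1.12 (Twist1) and 0.29 (Zeb1). None of the 6 endoderm markers, Foxa2 itself among them, was called either, at a median of -4.60. The test did not call even the deleted gene, so it cannot decide whether the rise of Cdh2 differs between the genotypes. Such a difference is not shown.

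At day 0, d0ko was set against d0con to see if the genotypes differ before differentiation. No gene was called among the 10 or among all 13899 tested, and 195 had an unadjusted p under 0.05. DESeq2 called 1 gene, not among the 10, and edgeR gave none of the 10 an unadjusted p under 0.05. In TPM, 7 of the 10 had both d0ko libraries above both d0con libraries and 1, Epcam, had both below, beside 28.9% and 14.9% of all genes tested. The largest log2 fold changes were those of Zeb2 at 1.97 (SE 0.93), from 3 and 4 counts in d0con and 21 and 15 counts in d0ko, of Snai1 at 1.15 (SE 0.89) and of Twist1 at 1.06 (SE 0.72), all with an edgeR adjusted p of 1. Vim had 43.0 and 41.6 TPM in d0ko against 28.0 and 28.1 TPM in d0con, a gap much wider than the spread within either pair, at a log2 fold change of 0.55 (SE 0.37). The fibroblast marker sum was also higher in both d0ko libraries, and its part in these differences was not tested.

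In the doxycycline series d2-FVFp was compared with d2-FVFn to ask whether induced Foxa2 moves the EMT genes under stem cell conditions. Of the 9 genes tested none was called, beside 6.96% of 12943 genes called higher and 1.47% called lower. By edgeR 1 of the 9 had an unadjusted p under 0.05, and DESeq2 and limma also called none. Snai2 was not tested, since it reached 1 CPM in 1 of the 4 libraries only, at 0.52 and 0.72 TPM in d2-FVFn and 0.61 and 1.32 TPM in d2-FVFp. The median log2 fold change of the 9 was 0.18.

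Cdh1 had 544 and 552 TPM in d2-FVFn and 540 and 657 TPM in d2-FVFp, with a change of 0.08 in log2 units (SE 0.12, adjusted p = 0.674). Cdh2 had 4.51 and 7.96 TPM against 6.62 and 9.02 TPM, with a change of 0.28 in log2 units (SE 0.30, adjusted p = 0.551). Both genes overlapped between the groups, and the log2 ratio of Cdh2 to Cdh1 was -6.29 ± 0.48 and -6.09 ± 0.08 (SD, n = 2 each). The Cdh2 level was above that of every day 0 library and below that of every day 3 library, though the lines and the media differ. Snai1 stood at 1.41 and 1.41 TPM in d2-FVFn and 2.92 and 3.07 TPM in d2-FVFp. The pairs did not overlap, but the difference of 1.04 on the log2 scale (SE 0.40) missed the threshold (adjusted p = 0.121). Twist1 did not overlap either, at 1.08 and 1.31 TPM against 2.09 and 1.78 TPM (log2 fold change 0.63, SE 0.44, adjusted p = 0.356). It rests on 15 and 22 counts against 25 and 25. The share of all genes that do not overlap in this series was not determined, so these 2 separations are descriptions only. Vim had 35.3 and 40.5 TPM against 34.1 and 49.7 TPM, Fn1 171 and 112 against 159 and 173, and Epcam 200 and 211 against 222 and 175. These 3 overlapped, with log2 fold changes of 0.10 (SE 0.21), 0.18 (SE 0.19) and -0.09 (SE 0.14). Zeb1 had 3.23 and 2.26 TPM against 4.20 and 2.87 TPM, and Zeb2 had 0.37 and 0.58 TPM against 0 and 0.39 TPM, where the value of 0 is a count of 0 in replicate 1. The Zeb2 log2 fold change of -1.32 (SE 1.01, adjusted p = 0.399) was the largest in size of the 9, and 2 of 9 alternatives called Zeb2 lower, the replicate block and the fit without d2-FVFp replicate 2, which leaves the library with 0 counts alone in its group.

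Across the 6 groups the order of the mean levels differed from gene to gene. Cdh1 ran from 268 ± 89.9 TPM in d3ko through d0con, d0ko, d3con and d2-FVFn to 598 ± 82.5 TPM in d2-FVFp, and neighbours overlapped except between d0con and d0ko and between d0ko and d3con. Cdh2 ran from 1.57 ± 0.59 TPM in d0con through d0ko, d2-FVFn, d2-FVFp and d3ko to 92.0 ± 32.4 TPM in d3con, with overlap only between the 2 doxycycline groups. Fn1 was highest in d3ko (443 ± 124 TPM), Vim in d3ko (262 ± 100 TPM) with overlap with d3con, and Epcam in d2-FVFn (205 ± 7.76 TPM). Over the 14 libraries, the genes most like Cdh2 among 9743 genes with a mean of at least 5 TPM, by Pearson correlation of log2(TPM + 1), were Greb1 (r = 0.988), Kifc2 (0.987) and Mum1l1 (0.986). Those most like Cdh1 were Tom1l1 (0.934), Lrrc16a (0.921) and Syt5 (0.911), and those most like Epcam were Efcab4a (0.816), Klhl8 (0.802) and Plk5 (0.783). These values describe libraries that share lines, clones and conditions and are given without a test. Greb1 stood at 15.1 to 24.4 TPM in d3con and at 1.68 to 17.9 TPM in d3ko, and was at 0.17 TPM or less at day 0. Tom1l1 stood at 43.6 to 56.9 TPM in d3con against 22.3 to 27.9 TPM in d3ko, a gap of the same sense as that of Cdh1.

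To set the 10 genes in their pathway, 25 other epithelial genes and 30 other mesenchymal or gastrulation genes were followed. In d3con against d0con 16 of 28 mesenchymal genes tested were called higher and 1 lower, beside 20.6% and 14.6% of all genes tested. Their median log2 fold change was 1.49. In the fit of the day 0 libraries alone, 23 of these genes passed the filter, and 12408 of all genes. The rest of the 28, and of the 13899 genes tested, passed through day 3, which favours calls of higher at day 3 in both genotypes. T (Brachyury, the factor that marks the primitive streak) went from 0.17 and 0.43 TPM to 11.4, 131 and 15.5 TPM, by 7.22 (SE 1.82, adjusted p = 0.00964). Msx1, a homeobox gene, had 1.05 and 1.28 TPM at day 0 and 86.4, 45.0 and 102 TPM at day 3, by 5.86 (SE 0.79, adjusted p = 0.000582). Foxc1, a forkhead gene of mesoderm, had 2 counts in d0con and 184 in d3con, which is 55.9 times as many per total count, with a 95% interval of 15.3 to 465 that covers counting error only. Snai3 was the 1 that fell, from 23.6 and 37.2 TPM to 9.43, 9.38 and 10.4 TPM, by a change of -1.85 in log2 units (SE 0.47, adjusted p = 0.0101).

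The epithelial list moved both ways in control differentiation, with 5 of 25 called higher and 7 lower, beside 20.6% and 14.6% of all genes tested, and a median log2 fold change of -0.07. Desmoplakin (Dsp), a desmosome protein, rose by 3.08 (SE 0.52, adjusted p = 0.00151), occludin (Ocln), of tight junctions, by 2.20 (SE 0.35, adjusted p = 0.00121), and Ovol2, a repressor that maintains epithelia, by 1.77 (SE 0.55, adjusted p = 0.0242). Genes called lower included Ovol1 at -2.80 (SE 0.31, adjusted p = 0.000311) and the integrin gene Itgb4 at -2.25 (SE 0.49, adjusted p = 0.00484). Ocln had 5.07 and 3.47 TPM at day 0 and 22.6, 17.2 and 27.8 TPM at day 3, and Ovol1 4.45 and 4.63 TPM against 0.70, 0.85 and 0.69 TPM, so in both the groups were widely separated.

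In d3ko against d3con 4 of 25 epithelial genes were called lower and none higher, beside 3.51% and 4.75% of all genes tested, with a median log2 fold change of -0.28 against 0.02 over all genes tested. Those of largest size were Ovol2 at -2.93 (SE 0.50, adjusted p = 0.0126), Ocln at -1.85 (SE 0.30, adjusted p = 0.0112) and Perp, a desmosome component, at -1.14 (SE 0.29, adjusted p = 0.0376). Ovol2 had 3.48, 2.61 and 6.35 TPM in d3ko against 44.9, 13.8 and 41.6 TPM in d3con. None of the 25 was called in either direction with clones summed, with only the 2 groups compared, without both 75-base libraries or without d3con replicate 3, and 1 was called lower without d3con replicate 1 and 2 without d3ko replicate 1 or with replicate 2 alone at day 3. Other alternatives gave more calls among the 25. DESeq2 called 2 higher and 6 lower, the fit without d3ko replicate 2 called 2 higher and 5 lower, and that without a filter 1 higher and 4 lower. Of 28 mesenchymal genes none was called higher and 1 was lower, Mmp14, a matrix metalloproteinase, at -1.23 (SE 0.26, adjusted p = 0.0209). DESeq2 called 2 of these 28 higher and 1 lower. In d3ko against d0ko 13 of 28 mesenchymal genes were called higher and 1 lower, and 2 of 25 epithelial genes higher and 6 lower, beside 11.6% and 5.72% of all genes tested. At day 0 no gene of either list was called between genotypes by edgeR.

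In d2-FVFp against d2-FVFn 3 of 25 epithelial genes were called higher and 2 lower, and 6 of 22 mesenchymal genes tested higher and 1 lower, beside 6.96% and 1.47% of all genes tested. The epithelial genes called higher included Itgb4 at 2.38 (SE 0.22, adjusted p = 0.00196) and Perp at 1.29 (SE 0.22, adjusted p = 0.0114). Those called lower were Ovol1 at -2.48 (SE 0.42, adjusted p = 0.0112) and Grhl2, a factor that activates Cdh1, at -2.07 (SE 0.19, adjusted p = 0.00184). Grhl2 had 23.7 and 19.1 TPM in d2-FVFn and 5.59 and 4.93 TPM in d2-FVFp, while Cdh1 overlapped. The largest rises in the mesenchymal list were those of Sox9 at 6.27 (SE 0.63, adjusted p = 0.00211), Msx2 at 3.12 (SE 0.64, adjusted p = 0.019) and Cd44 at 2.63 (SE 0.58, adjusted p = 0.0236). Sox9 had 0 and 0.12 TPM in d2-FVFn against 4.74 and 5.68 TPM in d2-FVFp. Msx2 had 0.16 and 0.49 TPM against 4.13 and 2.02 TPM. Both start near 0 TPM, so the sizes of these 2 rises are poorly known. Lef1, a Wnt pathway factor, fell by 1.93 (SE 0.26, adjusted p = 0.00511).

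**Figure D5:**
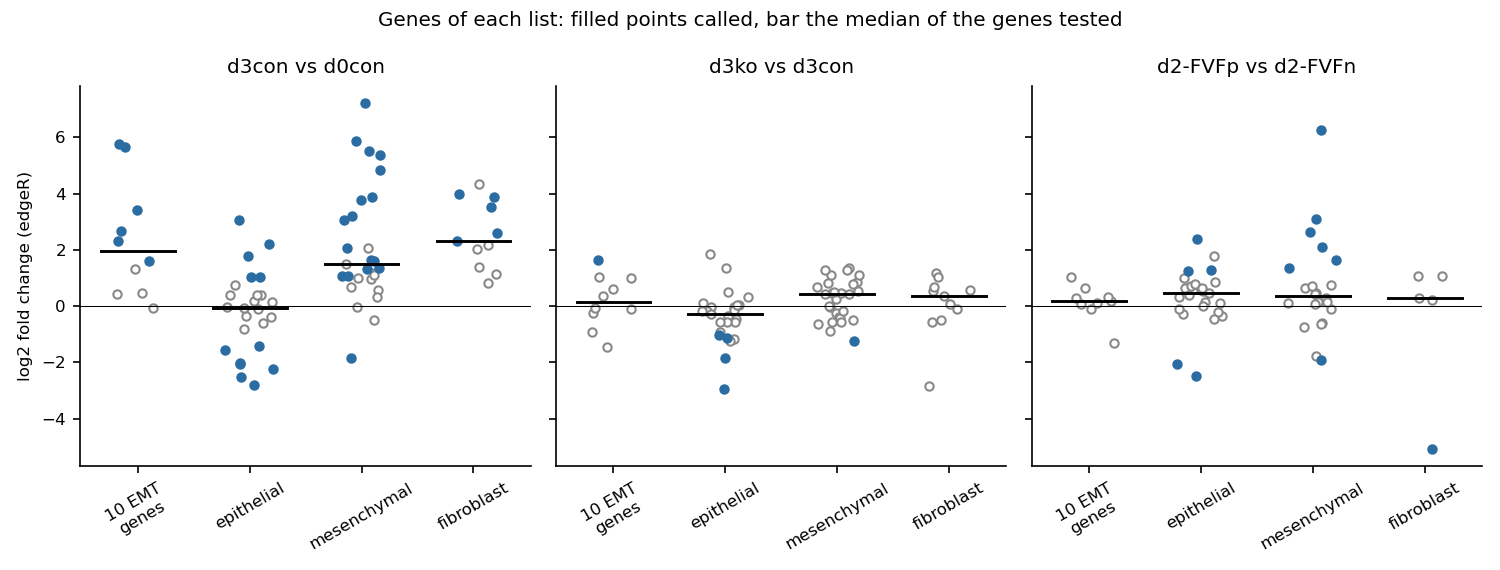
Log2 fold changes (vertical axis) of the 10 EMT genes and of the epithelial, mesenchymal and fibroblast lists (horizontal axis) in 3 comparisons, filled where called, with a bar at the median of the genes tested. In d3con against d0con the medians are 1.95, -0.07, 1.49 and 2.32 for the 4 lists, and in d3ko against d3con 4 epithelial genes are called lower.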

How the data were processed

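RNA from sorted mouse cells was amplified with a low-input kit, and the authors aligned reads to mm10 with STAR and quantified each of 14 libraries on its own with RSEM on RefSeq transcripts (versions not given in the sources used here). The deposited expected counts are RSEM's read estimates for each gene as the authors obtained them, without depth scaling. The deposited TPM values, also from the authors, take gene length and library total into account. Where genes overlap or share sequence, RSEM divides the reads among them.

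Expected counts were rounded. Genes with at least 1 CPM in at least 2 libraries of a fit were tested (13899 in the fit of 10 day 0 and day 3 libraries, 12943 in the fit of 4 doxycycline libraries) with TMM scaling and edgeR 4.0.16 (R 4.3.3), with DESeq2 1.42.0 and limma 3.58.1 as alternatives. The limma fit used log2 values of TPM plus 1. The SE is the log2 fold change divided by the square root of F. Groups and replicate numbers came from the titles. Same-numbered day 0 and day 3 libraries of a genotype share a clone name, so these numbers pair them, although their deviations correlated at only -0.01 across genes.

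The 10 genes and all gene lists were chosen with earlier results of these data known. Named list genes are, by rule, up to 3 per direction with the largest called log2 fold change in each of 3 comparisons. A gene that this rule names is not reported here. Gene positions are RefSeq GRCm38, the assembly that mm10 names. Alternatives were other scaling, filters, tools, blocks, summed clones and left-out libraries. No sample was left out of the tests.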

Additional observations from a re-analysis of the deposited data

How the results depend on the processing

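Of the 272 values obtained for called genes under alternatives, 249 were called again in the same direction and 23 were not, and none changed sign. Some of these fits left out a library of a group not compared, which changes only scaling, filter and shared spread. The same holds for the counts of alternatives given above, so these counts overstate how far the calls were probed. Of the 777 values for genes not called, 734 kept their sign and stayed uncalled, 12 became called and 31 changed sign. With the clone as a block, no call of the 10 genes changed in d3con against d0con or d3ko against d0ko. The replicate number as a block gives same-numbered libraries of both genotypes 1 shared effect and sets replicate 3 apart from replicate 1. It changed no call of the 10 genes in d3con against d0con, d3ko against d0ko or d3ko against d3con. In d2-FVFp against d2-FVFn, where the numbers are not shown to pair libraries (correlation of deviations 0.32), the block called 1 gene, Zeb2 at -1.72. In d3ko against d3con the 10 genes gave 1 call, but 2 with DESeq2 and 0 with only the 2 groups compared, with clones summed or without both 75-base libraries, and all genes called went from 1148 to 67 with only the 2 groups, 1 with clones summed, 1 without the 75-base libraries and 145 with only the day 3 libraries lowest in fibroblast markers. In d3ko against d0ko all genes called went from 2408 to 1345 with only the 2 groups and 4272 with the libraries lowest in fibroblast markers. For d0ko against d0con DESeq2 called 1 gene. For the interaction, 0 genes became 565 with DESeq2, 1 with median-of-ratios scaling, 16 with no filter, 1 with the mean count filter and 12 with limma. The causes were not tested. With a pseudocount of 0.1 TPM the log2 ratio of Cdh2 to Cdh1 was -7.67 in d0con, -6.99 in d0ko and -6.25 in d2-FVFp. Values that changed sign were, for Epcam, 0.14 with limma in d3con against d0con, -0.19 with the replicate block, -0.021 with the clone block and -0.30 with the libraries lowest in fibroblast markers in d3ko against d0ko, and -0.0078 with limma in the interaction, for Snai1 0.0016 with clones summed and for Zeb2 0.47 with limma in the interaction, and in d3ko against d3con 0.59 for Snai2 and 0.061 for Twist1 with the libraries lowest in fibroblast markers and 0.041 for Twist1 without the 75-base libraries.

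Leaving out 1 library at a time gave, for genes called among the 10, 2 to 7 in d3ko against d0ko, 0 to 3 in d3ko against d3con and 0 to 1 in d2-FVFp against d2-FVFn. For all genes called the ranges were 667 to 2860 in d3ko against d0ko, 80 to 2249 in d3ko against d3con, 0 to 1118 in the interaction and 562 to 893 in d2-FVFp against d2-FVFn. Log2 fold changes that changed sign ranged, in d3ko against d3con, from -0.20 to 1.75 for Snai1, -0.46 to 0.13 for Snai2 and -0.32 to 0.15 for Twist1, and from -0.37 to 0.22 for Epcam in d3ko against d0ko and -0.0027 to 0.12 for Cdh1 in d0ko against d0con. In the interaction they ranged from -1.35 to 0.60 for Snai1, -0.31 to 0.28 for Epcam and -0.51 to 0.069 for Vim. In d2-FVFp against d2-FVFn they ranged from -0.051 to 0.76 for Cdh2, -0.076 to 0.53 for Fn1, -0.053 to 0.23 for Cdh1, -0.26 to 0.083 for Epcam and -0.18 to 0.36 for Vim, and Zeb2 ranged from -8.31 to -0.36, where -8.31 rests on a lone d2-FVFp library with 0 counts and gives no measure of size. Snai2, Twist1 and Zeb2 rest on fewer than 50 counts in every day 0 library, which limits how precisely their changes are known.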
